A study of Homo sapiens with 8 samples.

Results

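The mRNA levels of 10 genes that control passage through the G1 phase were described in HT29 cells, an established line from a human colorectal adenocarcinoma. The genes are the D-type cyclins CCND1, CCND2 and CCND3, their kinases CDK4 and CDK6, the E-type cyclins CCNE1 and CCNE2, and the CIP/KIP inhibitors CDKN1A, CDKN1B and CDKN1C. They were chosen by their symbols. Of the 10, 9 have a row in the authors' deposited tables, which hold 18937 genes. CCND2 (chromosome 12, 4273772 to 4305350, plus strand) has none there, and its transcripts had 0 reads in all 8 libraries. Gene positions are those of GENCODE release 29 on GRCh38.

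The cells had been given ICG-001 at 10 µM, CWP232228 at 1.5 µM, YB-0158 at 0.3 µM or the vehicle DMSO at 0.1%, with 2 RNA-seq libraries in each group. Exposure lasted 48 h in 6 libraries, and 49 h is given for the second replicates of ICG-001 and CWP232228. ICG-001 is known to bind the coactivator CREBBP, CWP232228 is described as an inhibitor of transcription by beta-catenin and TCF factors, and YB-0158 is described as a ligand of the RNA-binding protein KHDRBS1. The model is a single cell line, which carries mutant APC, and each compound was tested at a single dose. Nothing in the labels says whether replicates came from separate cultures, so the spread behind each p-value may be technical.

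In G1, growth and Wnt signals raise D-type cyclins, which activate CDK4 and CDK6, and these kinases begin to phosphorylate the retinoblastoma protein. E2F factors are then released and switch on CCNE1, CCNE2 and the genes of DNA synthesis, and cyclin E with CDK2 completes the phosphorylation. INK4 proteins block CDK4 and CDK6, while p21 (CDKN1A), p27 (CDKN1B) and p57 (CDKN1C) bind cyclin and CDK complexes and chiefly inhibit CDK2. In colorectal tumours CCND1 and MYC are well-known genes downstream of beta-catenin, and CDK4 is a known target of MYC.

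The promoters of CDK4 and CCNE1 are shown because these genes had the smallest p-values among the cyclins and kinases. Each window runs from 250 bases before to 50 bases after the start of the RefSeq entry on GRCh38.p14. These starts differ from the GENCODE gene starts given with the results, and the CDK4 window lies within the GENCODE gene. The CDK4 window is chr12:57752261-57752560 on the minus strand, and the CCNE1 window is chr19:29811741-29812040 on the plus strand. Capitals mark every CACGTG, the canonical E-box bound by MYC and MAX, and every GGGCGG, the GC box bound by SP factors, with matches on the other strand written as CCGCCC.
CDK4: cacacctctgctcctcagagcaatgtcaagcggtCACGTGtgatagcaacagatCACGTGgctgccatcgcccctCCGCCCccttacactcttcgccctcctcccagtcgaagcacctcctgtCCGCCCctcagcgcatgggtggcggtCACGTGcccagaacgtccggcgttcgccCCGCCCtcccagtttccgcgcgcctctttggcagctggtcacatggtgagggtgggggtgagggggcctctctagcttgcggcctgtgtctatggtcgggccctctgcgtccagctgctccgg
CCNE1: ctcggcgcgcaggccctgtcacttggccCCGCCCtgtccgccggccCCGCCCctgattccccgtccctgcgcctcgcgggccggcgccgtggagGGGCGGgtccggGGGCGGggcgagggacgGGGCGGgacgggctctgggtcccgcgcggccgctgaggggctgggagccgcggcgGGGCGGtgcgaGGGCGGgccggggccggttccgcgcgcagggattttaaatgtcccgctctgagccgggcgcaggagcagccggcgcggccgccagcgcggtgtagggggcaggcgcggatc
Both strands were searched, and the motifs do not overlap each other here. The CDK4 window held 3 E-boxes and 3 GC boxes. Of 35116 promoter windows of the same length, 7.26% held at least 1 E-box and 0.0940% held at least 3. The CCNE1 window held 7 GC boxes and no E-box, where 45.0% of all windows held at least 1 GC box and 1.50% held at least 7. The minimum counts of 3 and 7 are those seen in these windows, so their shares are descriptive and not a test. The letters TTTNNCGC, a form of the E2F motif found in 6.89% of windows, were in neither window, which says only that these letters do not occur there. Of the 10 genes, 6 had a promoter entry, and these matches are descriptions, not binding sites.

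Libraries held between 29071547 and 58489118 estimated reads. Levels are given as CPM, counts relative to the TMM-scaled library size, for comparisons of 1 gene between libraries, and as TPM, which is also corrected for transcript length, for comparisons between genes. The replicates of a compound were closer to each other than those of DMSO: over all genes, their log2 difference had an SD of 0.48 (ICG-001), 0.49 (CWP232228) and 0.46 (YB-0158), against 0.60 (DMSO). Fold changes followed GC content, with Spearman correlations over genes of -0.43 (ICG-001), -0.58 (CWP232228) and -0.38 (YB-0158), where genes share libraries and are not independent replicates. Differences between the 2 replicates of a group followed it too, at -0.49 (ICG-001), -0.35 (CWP232228), -0.33 (YB-0158) and 0.42 (DMSO), taken as replicate 2 against replicate 1. The calls and directions of the members that changed in a fit with offsets for GC content and length per library, or in a fit on counts scaled from TPM, are therefore given beside their values. All 10 colon epithelium markers were detected, with CDX1 at 0.37 to 1.27 TPM, and their summed level was 9131 to 10271 TPM in the compounds, against 10864 and 11151 TPM in DMSO. KRT8 (4135 to 5300 TPM) and KRT18 (2369 to 3551 TPM) made up most of this sum. Single markers varied more, with CDH1 at 126 to 485 TPM and CEACAM5 at 1.32 to 11.6 TPM. Of the 10, 4 were called higher and 5 lower than DMSO with ICG-001 and with YB-0158, and 3 and 5 with CWP232228. The 11 markers of fibroblasts, leukocytes and endothelium summed to 5.87 to 10.7 TPM in the compounds, against 10.3 and 9.17 TPM in DMSO. COL1A2 and CD3E were at 0 in every library, and PTPRC reached at most 0.00844 TPM. CD68 had 3.65 to 7.13 TPM, LUM 0.344 to 3.11 TPM, COL1A1 0.263 to 1.79 TPM and PECAM1 0.119 to 0.700 TPM. These 4 could be tested against DMSO. With ICG-001 and with YB-0158, 1 was called higher and 3 lower, and with CWP232228 1 and 1. Of all genes, 48.8%, 43.8% and 42.8% were called with ICG-001, YB-0158 and CWP232228. The part of these markers, of GC content and of the DMSO spread in the results was not tested beyond the values given beside them.

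On the length-corrected scale CDK4 stood far above the other members in every group. Its TPM averaged 208 ± 0.75 with ICG-001, 222 ± 12.1 with CWP232228, 204 ± 2.82 with YB-0158 and 279 ± 3.42 with DMSO (SD, n = 2 each). CCND1 had the second highest mean with each compound and the third highest, after CCND3, with DMSO. It had 56.9 ± 8.41, 59.8 ± 3.76 and 63.8 ± 3.61 TPM with ICG-001, CWP232228 and YB-0158, against 35.8 ± 14.1 TPM with DMSO. CCND3 had 37.0 ± 6.45 TPM with ICG-001, 44.5 ± 1.94 TPM with CWP232228 and 32.9 ± 1.91 TPM with YB-0158, against 43.4 ± 7.71 TPM with DMSO. With DMSO the TPM of CCND1 and CCND3 lay within each other's spread, while with each compound both libraries of CCND1 lay above both of CCND3.

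The remaining members were lower and closely spaced. CDKN1B had 13.96 to 22.4 TPM over the 8 libraries. CCNE1 had 8.41 to 15.4 TPM, CDKN1A 7.77 to 13.4 TPM and CDK6 5.12 to 11.5 TPM, and their order was not the same in every group. With CWP232228 both libraries of CCNE1 lay above those of CDKN1A and CDK6, while with YB-0158 both lay below them. With ICG-001 CDK6 was the lowest of these 3, and with DMSO CCNE1 lay above CDK6 and overlapped CDKN1A. CCNE2 had 3.20 to 9.68 TPM and CDKN1C 2.02 to 4.52 TPM. CCND2, the D-type cyclin best known from ovary and lymphoid cells, had 0 reads, which at the floor of 3 counts allows up to 0.0522 to 0.106 CPM depending on the library.

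**Figure D1:**
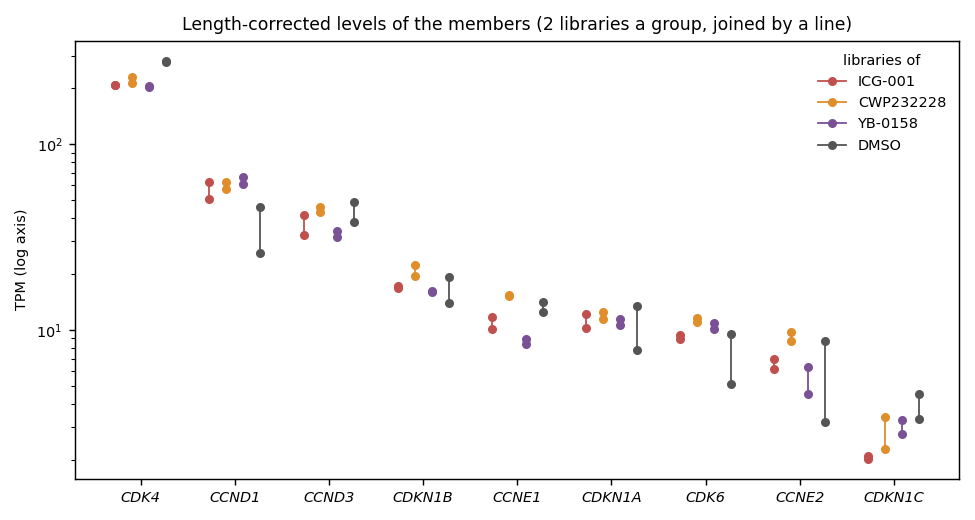
TPM (log axis) of the 9 members with reads, with 1 point per library and the 2 libraries of a group joined by a line, in the order ICG-001, CWP232228, YB-0158 and DMSO. CDK4 lies above 200 TPM in every library, and the DMSO pairs of CCND1, CDKN1A, CDK6 and CCNE2 are spread more widely than the pairs of the compounds.

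The makeup of the D-type cyclin pool shifted toward CCND1 with each compound on this scale. CCND1 made up 66.0% and 55.1% of the D-type cyclin TPM in the ICG-001 libraries, 57.0% and 57.7% in the CWP232228 libraries and 67.7% and 64.1% in the YB-0158 libraries, against 48.4% and 40.5% in the DMSO libraries. All 6 shares with a compound lay above both DMSO shares. With 2 libraries against 2, the smallest exact two-sided permutation p is 0.333, so no p is given for these shares. CDK4 made up 94.9% to 95.9% of the TPM of CDK4 and CDK6 in the compound libraries, against 96.8% and 98.2% in the DMSO libraries.

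Against DMSO, 9 members could be tested with edgeR's quasi-likelihood test over 16449 genes, with a gene called at a Benjamini-Hochberg adjusted p under 0.05. With ICG-001, 2 members rose (CCND1 and CDKN1A) and 4 fell (CCND3, CDK4, CCNE1 and CDKN1C), where 48.8% of all genes tested were called, 24.8% higher and 24% lower. With CWP232228, 2 rose (CDK6 and CCNE2) and 2 fell (CDK4 and CDKN1C), where 42.8% of all genes were called, 21.6% higher and 21.2% lower. With YB-0158, 1 rose (CCND1) and 4 fell (CCND3, CDK4, CCNE1 and CDKN1C), where 43.8% of all genes were called, 21.7% higher and 22.1% lower. The members called are thus 6, 4 and 5 of 9, shares near the background with CWP232228 and above it by 1 or 2 genes with ICG-001 and YB-0158. The median log2 fold change of the members was -0.23 with ICG-001, 0.07 with CWP232228 and -0.20 with YB-0158, beside 0.03, 0.04 and 0.02 over all genes. In the authors' deposited tables, 1 member was higher and 3 were lower with ICG-001, 2 and 1 with CWP232228, and 1 and 3 with YB-0158, where 35.9%, 30.4% and 33.4% of genes were called in either direction. The 3 comparisons share the same DMSO libraries. With a library of the compound left out fewer members were called, whichever replicate it was. Fewer of all genes were called in these fits as well, so this loss of calls is not particular to the members.

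**Figure D2:**
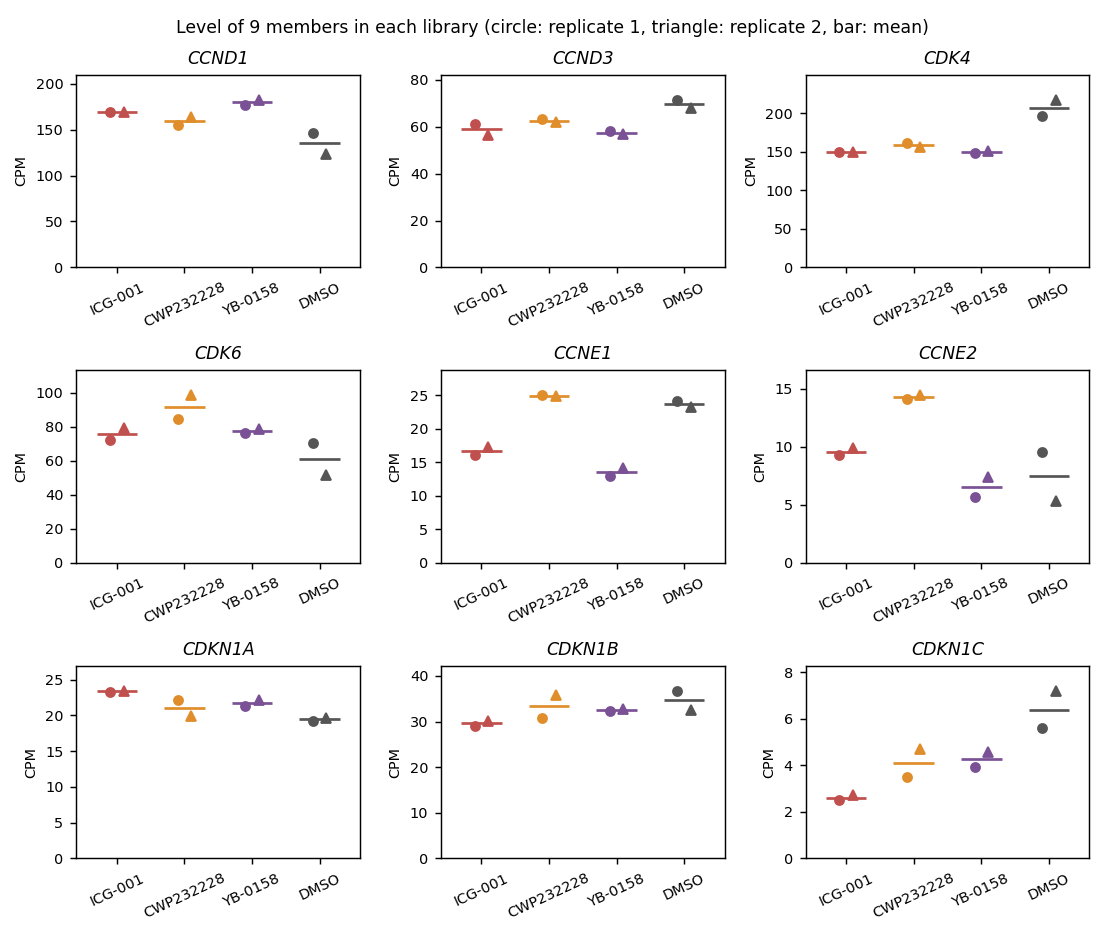
CPM of 9 members in each library, from 0 upward, for ICG-001, CWP232228, YB-0158 and DMSO (circle: replicate 1, triangle: replicate 2, bar: mean). The CDK4 libraries of all 3 compounds lie below both DMSO libraries, and CCNE1 is low with ICG-001 and YB-0158 but near its DMSO level with CWP232228.

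Among the D-type cyclins, CCND1 rose with ICG-001 and YB-0158 and CCND3 fell with both. CCND1 (chromosome 11, 69641087 to 69654474, plus strand) had 169 and 169 CPM with ICG-001, 155 and 164 CPM with CWP232228, and 177 and 183 CPM with YB-0158, against 147 and 124 CPM with DMSO. Every compound library lay above both DMSO libraries, and the YB-0158 libraries were the highest. These are bulk RNA levels, in which a change in the share of cells that carry a transcript and a change in its amount per cell cannot be told apart. CCND1 had a log2 fold change, written below as an estimate, of 0.32 (SE 0.09, adjusted p = 0.015) with ICG-001, 0.24 (SE 0.09, adjusted p = 0.055) with CWP232228 and 0.41 (SE 0.09, adjusted p = 0.0058) with YB-0158. The YB-0158 rise was called under every alternative tried, whereas the ICG-001 call was lost with GC and length offsets (0.14, adjusted p = 0.11), on counts scaled from TPM (0.61, adjusted p = 0.061) and when ICG-001 replicate 1 (adjusted p = 0.068) or ICG-001 replicate 2 (adjusted p = 0.069) was left out. Without DMSO replicate 1, CCND1 was also called with CWP232228 (0.37, adjusted p = 0.0012).

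The size of the CCND1 rise depended on the length correction. In DMSO the effective length of CCND1 in the deposited files was 2842 and 3766 bases, while in the compound libraries it ran from 2374 to 2920 bases. On counts scaled from TPM, the log2 fold changes were 0.61 with ICG-001, 0.67 with CWP232228 and 0.78 with YB-0158, and in the authors' deposited table they were 0.52, 0.56 and 0.69. In the authors' deposited tables CCND1 was called with all 3 compounds, at adjusted p-values of 0.017, 0.011 and 0.0017. Part of CCND1 (497 exon bases) is shared with LTO1 on the other strand, and the library kit does not mark strand. LTO1 had 37.6 ± 2.27 CPM with ICG-001, 30.6 ± 1.59 CPM with CWP232228 and 34.8 ± 0.62 CPM with YB-0158, against 29.5 ± 1.70 CPM with DMSO (SD, n = 2 each).

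CCND3, a D-type cyclin that can replace CCND1 at CDK4 and CDK6 (chromosome 6, 41934933 to 42050357, minus strand), had 61.0 and 56.6 CPM with ICG-001, 63.3 and 61.9 CPM with CWP232228, and 58.0 and 56.7 CPM with YB-0158, against 71.5 and 68.0 CPM with DMSO. All 6 compound libraries lay below both DMSO libraries. Estimates for CCND3 on the log2 scale were -0.25 (SE 0.07, adjusted p = 0.025) with ICG-001, -0.16 (SE 0.08, adjusted p = 0.12) with CWP232228 and -0.28 (SE 0.07, adjusted p = 0.016) with YB-0158. Both calls were lost when either replicate of the compound was left out, at adjusted p-values of 0.051 and 0.17 with ICG-001 and 0.078 and 0.11 with YB-0158. The direction of CCND3 turned with GC and length offsets, to 0.11, 0.21 and 0.053 for ICG-001, CWP232228 and YB-0158. Neither call was kept on counts scaled from TPM (-0.30 with an adjusted p of 0.16 for ICG-001, and -0.47 with an adjusted p of 0.054 for YB-0158). CCND3 is at 60.0% GC, the second highest of the members after CDKN1C at 61.5%.

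CDK4 fell with all 3 compounds. CDK4 (chromosome 12, 57747727 to 57756013, minus strand), a kinase partner of the D-type cyclins, had 150.1 and 149 CPM with ICG-001, 161 and 156 CPM with CWP232228, and 148 and 150.4 CPM with YB-0158, against 197 and 217 CPM with DMSO. The 6 compound libraries lay close together and all below both DMSO libraries. CDK4 changed by -0.47 (SE 0.07, adjusted p = 0.0010) with ICG-001, -0.38 (SE 0.07, adjusted p = 0.0043) with CWP232228 and -0.47 (SE 0.07, adjusted p = 0.0012) with YB-0158 on the log2 scale. The authors' deposited tables gave -0.50, -0.41 and -0.52. Under GC and length offsets the sizes were -0.19, -0.13 and -0.26, and the CWP232228 call was lost (adjusted p = 0.072). CDK4 shares 1369 exon bases with TSPAN31 on the other strand, and TSPAN31 was not called, with log2 fold changes of -0.10, -0.25 and -0.11.

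CDK6, the other partner of the D-type cyclins, was called only with CWP232228. CDK6 lies on chromosome 7, 92604921 to 92836594, minus strand. It had 72.0 and 79.2 CPM with ICG-001, 84.8 and 98.7 CPM with CWP232228, and 76.5 and 79.0 CPM with YB-0158, against 70.6 and 51.7 CPM with DMSO. The 2 DMSO libraries were the lowest, and they differed from each other by more than the libraries of any compound. Estimates for CDK6 were 0.31 (SE 0.14, adjusted p = 0.11) with ICG-001, 0.58 (SE 0.14, adjusted p = 0.014) with CWP232228 and 0.35 (SE 0.14, adjusted p = 0.084) with YB-0158. Under GC and length offsets they were -0.27, 0.066 and -0.22, so the direction turned with ICG-001 and YB-0158 and the CWP232228 call was lost (adjusted p = 0.66). That call was also lost on counts scaled from TPM (0.56, adjusted p = 0.10). Without DMSO replicate 1, CDK6 was called with ICG-001 (0.56) and YB-0158 (0.60), and without CWP232228 replicate 2 it was not called with CWP232228 (0.47, adjusted p = 0.11).

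**Figure D3:**
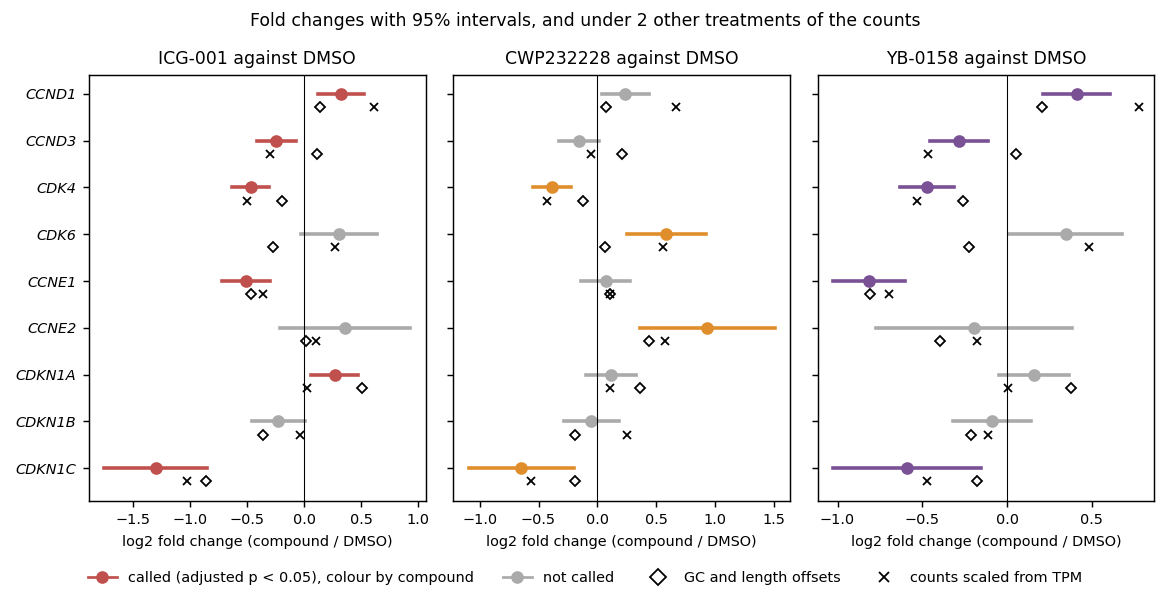
Log2 fold change against DMSO of 9 members for each compound (points, with 95% intervals of the fitted model; coloured where the adjusted p is under 0.05, grey otherwise), with the value under GC and length offsets (diamonds) and on counts scaled from TPM (crosses). CDK4 and CDKN1C lie below 0 for every compound under all 3 treatments of the counts, while CCND3 and, for ICG-001 and YB-0158, CDK6 have diamonds on the other side of 0.

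CCNE1 fell with ICG-001 and YB-0158, and CCNE2 rose with CWP232228. CCNE1 (chromosome 19, 29811898 to 29824308, plus strand), which activates CDK2 at the end of G1, had 16.1 and 17.3 CPM with ICG-001, 24.996 and 24.8 CPM with CWP232228, and 12.9 and 14.1 CPM with YB-0158, against 24.2 and 23.3 CPM with DMSO. The ICG-001 and YB-0158 libraries all lay below the DMSO libraries, and the CWP232228 libraries lay just above them. On the log2 scale the change in CCNE1 was -0.51 (SE 0.09, adjusted p = 0.0024) with ICG-001, 0.07 (SE 0.09, 95% interval -0.14 to 0.28, adjusted p = 0.56) with CWP232228 and -0.81 (SE 0.09, adjusted p = 3.2e-04) with YB-0158. Under GC and length offsets these were -0.47, 0.11 and -0.81. On counts scaled from TPM the ICG-001 value was -0.36 (adjusted p = 0.061), and the authors' deposited table gave -0.34 (adjusted p = 0.040).

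CCNE2, a second E-type cyclin with the same kinase partner (chromosome 8, 94879770 to 94896678, minus strand), had 9.27 and 9.91 CPM with ICG-001, 14.1 and 14.4 CPM with CWP232228, and 5.71 and 7.40 CPM with YB-0158, against 9.56 and 5.37 CPM with DMSO. The CWP232228 libraries were the highest, and the libraries of ICG-001 and YB-0158 overlapped those of DMSO. Log2 estimates for CCNE2 were 0.36 (SE 0.24, adjusted p = 0.26) with ICG-001, 0.93 (SE 0.25, adjusted p = 0.020) with CWP232228 and -0.20 (SE 0.25, adjusted p = 0.55) with YB-0158. The DMSO pair decides the direction for 2 compounds: without DMSO replicate 1 the values were 0.84 (adjusted p = 0.0026) with ICG-001 and 0.28 with YB-0158, and without DMSO replicate 2 they were -0.012 with ICG-001 and -0.57 (adjusted p = 0.018) with YB-0158. Under GC and length offsets the CWP232228 value was 0.44 (adjusted p = 0.083), on counts scaled from TPM it was 0.57 (adjusted p = 0.31), and in the authors' deposited table it was 0.27 (adjusted p = 0.27). Without replicate 1 and without replicate 2 of CWP232228 the call was lost as well (adjusted p = 0.074 and 0.097).

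CCNE2 is the most AT-rich member, at 37.0% GC, and 1629 of its exon bases lie opposite INTS8. INTS8 had 46.2 ± 4.81 CPM with ICG-001, 54.5 ± 2.20 CPM with CWP232228 and 39.3 ± 3.02 CPM with YB-0158, against 39.8 ± 4.04 CPM with DMSO (SD, n = 2 each). INTS8 was called with CWP232228 as well (0.45, adjusted p = 0.012), and reads of the 2 genes in the shared bases cannot be told apart.

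Among the CIP/KIP inhibitors, CDKN1C fell with every compound, CDKN1A rose with ICG-001, and CDKN1B was called with none. CDKN1C (chromosome 11, 2883213 to 2885773, minus strand), which encodes p57 from an imprinted region, had 2.50 and 2.71 CPM with ICG-001, 3.48 and 4.70 CPM with CWP232228, and 3.95 and 4.58 CPM with YB-0158, against 5.60 and 7.21 CPM with DMSO. All compound libraries lay below both DMSO libraries and those of ICG-001 were the lowest. These levels rest on 107 to 227 reads per library. CDKN1C changed by -1.30 (SE 0.20, adjusted p = 0.0011) with ICG-001, -0.65 (SE 0.20, adjusted p = 0.028) with CWP232228 and -0.59 (SE 0.19, adjusted p = 0.036) with YB-0158 on the log2 scale.

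The ICG-001 fall of CDKN1C was called under every alternative tried, at -0.86 with GC and length offsets. The other falls were not: with these offsets they were -0.19 (adjusted p = 0.49) with CWP232228 and -0.18 (adjusted p = 0.47) with YB-0158. Scaling counts from TPM gave -0.57 (adjusted p = 0.18) and -0.47 (adjusted p = 0.23). Without DMSO replicate 2 they were -0.47 (adjusted p = 0.11) and -0.41 (adjusted p = 0.15), and without CWP232228 replicate 1 the CWP232228 value was -0.44 (adjusted p = 0.16). Without YB-0158 replicate 1 or replicate 2 the YB-0158 call was also lost (adjusted p = 0.18 and 0.080). The authors' deposited tables called CDKN1C only with ICG-001 (-0.85, adjusted p = 0.010).

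CDKN1A, which encodes p21 and is a broad inhibitor of cyclin and CDK complexes (chromosome 6, 36676460 to 36687339, plus strand), had 23.3 and 23.5 CPM with ICG-001, 22.2 and 19.9 CPM with CWP232228, and 21.3 and 22.1 CPM with YB-0158, against 19.2 and 19.7 CPM with DMSO. The compound libraries all lay above both DMSO libraries, and CWP232228 replicate 2 lay closest to them. Log2 estimates for CDKN1A were 0.27 (SE 0.09, adjusted p = 0.039) with ICG-001, 0.12 (SE 0.09, adjusted p = 0.34) with CWP232228 and 0.16 (SE 0.09, adjusted p = 0.19) with YB-0158. Under GC and length offsets CDKN1A was called with all 3 compounds (0.51, 0.36 and 0.38), while on counts scaled from TPM the ICG-001 value was 0.029 (adjusted p = 0.93). The ICG-001 call was lost when any of replicates 1 and 2 of ICG-001 or DMSO was left out, at adjusted p-values from 0.053 to 0.14. The authors' deposited tables gave 0.01, 0.06 and 0.00, none of them called.

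CDKN1B, which encodes p27 and was the most abundant CIP/KIP inhibitor by TPM in every group (chromosome 12, 12715058 to 12722371, plus strand), had 29.1 and 30.02 CPM with ICG-001, 30.8 and 35.9 CPM with CWP232228, and 32.4 and 32.7 CPM with YB-0158, against 36.7 and 32.5 CPM with DMSO. The groups overlapped except for ICG-001, which lay below DMSO. Log2 estimates for CDKN1B were -0.23 (SE 0.10, 95% interval -0.46 to 0.00, adjusted p = 0.094) with ICG-001, -0.05 (95% interval -0.29 to 0.18) with CWP232228 and -0.09 (95% interval -0.32 to 0.14) with YB-0158. The ICG-001 fall was called with GC and length offsets (-0.36, adjusted p = 0.0051) and without DMSO replicate 2 (-0.33, adjusted p = 0.022). The CWP232228 direction turned on counts scaled from TPM, to 0.25 (adjusted p = 0.19).

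The compounds were also compared with each other as dosed, which is not a comparison at matched doses. CCNE1 was higher with CWP232228 than with ICG-001 by 0.58 on the log2 scale (SE 0.09, adjusted p = 0.0099), the only member called there, where 6.82% of all genes were called. This call was lost when either replicate of ICG-001 or CWP232228 was left out (adjusted p = 0.059 to 0.13). CDKN1C differed between them by 0.65 (95% interval 0.20 to 1.11, adjusted p = 0.091).

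Between YB-0158 and CWP232228, 2 members were called, both lower with YB-0158, where 7.78% of all genes were called, 3.56% higher and 4.21% lower. CCNE1 differed by -0.89 (SE 0.09, adjusted p = 0.0022) and CCNE2 by -1.13 (SE 0.24, adjusted p = 0.033). The CCNE1 difference was called under every alternative tried, and the CCNE2 difference was lost when any of the 4 libraries was left out (adjusted p = 0.096 to 0.25). Between YB-0158 and ICG-001, 0 of 9 members were called, where 0.00608% of all genes were called. Here CCNE1 differed by -0.30 (95% interval -0.51 to -0.09, adjusted p = 0.79), CDKN1C by 0.71 (95% interval 0.26 to 1.16, adjusted p = 0.74) and CDK4 by 0.00 (95% interval -0.17 to 0.16). Unadjusted p-values in edgeR's quasi-likelihood test were 0.0098 for CCNE1 and 0.0060 for CDKN1C. The share of all genes under an unadjusted 0.05 was not counted, so these values do not set the members apart. At an adjusted p under 0.05, DESeq2 also called 0 members, where 26 of 30456 genes were called.

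The transcripts of the members were compared because KHDRBS1, the described target of YB-0158, regulates splicing, with CCND1 among its known substrates. Transcript usage was tested with edgeR's diffSpliceDGE over 11611 genes, and CDK4 was the only member called with each compound, where 3.88% of genes were called with ICG-001, 3.58% with CWP232228 and 3.20% with YB-0158. The transcript CDK4-201 had 771 and 1071 estimated reads with ICG-001, 542 and 344 with CWP232228, and 903 and 448 with YB-0158, against 0 and 0 with DMSO. Every compound library thus assigned 7.2% to 16.9% of the CDK4 reads to a transcript that DMSO libraries left at 0. The mean CPM of CDK4-201 was 187-fold the DMSO floor of 3 counts per library with ICG-001, 137-fold with CWP232228 and 129-fold with YB-0158. These ratios are not lower bounds, since the floor leaves out error in how reads were divided between transcripts.

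This result is uncertain, since 96.4% of the exon bases of CDK4-201 are shared with other CDK4 transcripts and the reads were divided between them by a model. TSPAN31, with 1319 to 2739 reads per library, lies opposite 1369 exon bases of CDK4. The kit does not mark strand, so reads of TSPAN31 may enter this division too. CDK4-201 is the longest CDK4 transcript, at 2076 bases. CDK4-202, of 1650 bases that all lie within CDK4-201, took 29.7% to 35.7% of the CDK4 reads in the compound libraries, against 41.6% and 40.5% in the DMSO libraries. CDK4-204 moved too, with 419 and 149.5 reads with ICG-001 and 0 in every library of CWP232228 and YB-0158, against 357 and 219.7 reads with DMSO. CDK4-203 took 15.5% to 22.0% of the CDK4 reads in the compound libraries, against 18.1% and 20.8% in the DMSO libraries, so its ranges overlap. Transcripts of other members were at 0 in both DMSO libraries too. CCNE1-203 had 202 and 170 reads with ICG-001, 95.5 and 111 with CWP232228, and 137 and 0 with YB-0158. CCNE1 usage was not called by diffSpliceDGE (adjusted p = 0.069, 0.11 and 0.15 in the same order). CCND3-204 and CDKN1A-202 had reads only in ICG-001 replicate 1 and both YB-0158 libraries.

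**Figure D4:**
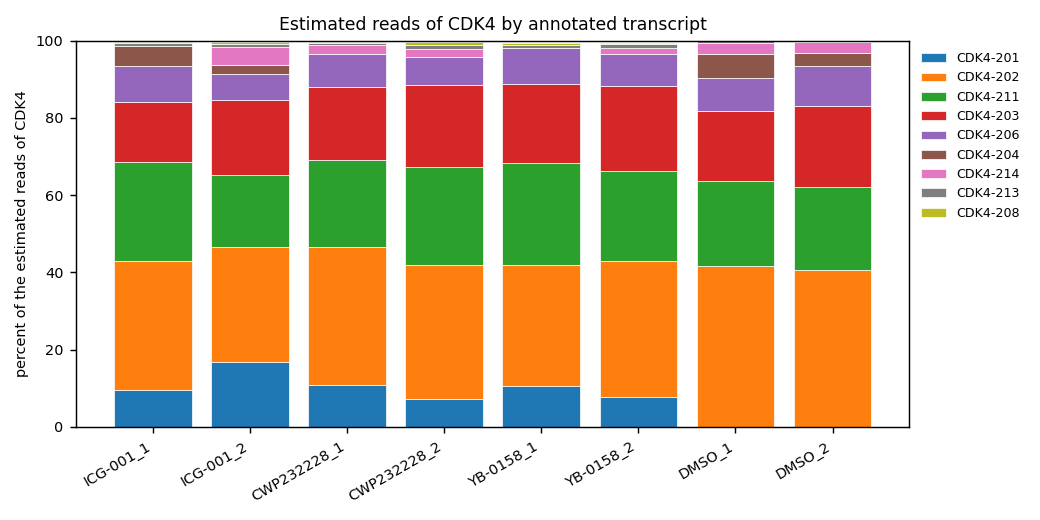
Share of the estimated CDK4 reads (percent) given to each annotated transcript with at least 20 reads on average, for the 2 libraries of ICG-001, CWP232228, YB-0158 and DMSO. CDK4-201, at the bottom of each bar, has reads in the 6 compound libraries and is listed at 0 in both DMSO libraries.

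CCND1 usage was not called with any compound (adjusted p = 0.68, 0.93 and 0.91 with ICG-001, CWP232228 and YB-0158). The full-length CCND1-201 took 95.9% to 98.2% of the CCND1 reads in the compound libraries, against 97.3% and 99.9% in the DMSO libraries. CCND1-206, annotated with a retained intron, had 207 and 109 reads with ICG-001, 124 and 149 with CWP232228, and 277 and 164 with YB-0158, against 64.7 and 0 with DMSO. As shares of the CCND1 reads these were 2.247% and 1.526%, 2.602% and 2.979%, and 2.728% and 2.299%, against 1.534% and 0% with DMSO. The shares of ICG-001 and DMSO thus overlapped. CCND1-203 had 14.2 and 7.6 reads with ICG-001, 3.9 and 3.2 with CWP232228, and 3.8 and 1.6 with YB-0158, against 0 and 0 with DMSO. All CCND1-203 values but those of ICG-001 are near the floor of 3 counts. Of the other members, CDK6 was called without DMSO replicate 1 for each compound (adjusted p = 0.0050, 0.0034 and 0.0039), and its transcript CDK6-202 had 771 reads in DMSO replicate 1 and 0 in replicate 2.

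Genes that act with the members are counted below beside all genes tested, of which 24.8% were higher and 24% lower with ICG-001, 21.6% and 21.2% with CWP232228, and 21.7% and 22.1% with YB-0158. Under GC and length offsets, 3271 of 16449 genes were higher and 4437 lower with ICG-001. These were 1619 and 3226 with CWP232228, and 3060 and 4286 with YB-0158. On counts scaled from TPM, 2644 of 16683 were higher and 2717 lower, 1588 and 1709, and 2357 and 2459 in the same order. Fits without a library of the compound called fewer of all genes in both directions than the fit of all 8 libraries. The other inhibitors of CDK4 and CDK6, the 4 INK4 genes, moved in both directions. With ICG-001 and with YB-0158, CDKN2B rose and CDKN2A, CDKN2C and CDKN2D fell, while with CWP232228 CDKN2A alone was called, lower. CDKN2B, which encodes p15 and is known as a TGF-beta target, had log2 estimates of 0.99 (SE 0.13, adjusted p = 6.2e-04) with ICG-001, 0.24 (SE 0.14, adjusted p = 0.19) with CWP232228 and 1.05 (SE 0.13, adjusted p = 5.5e-04) with YB-0158, and its level was 16.0, 9.54 and 16.7 CPM with ICG-001, CWP232228 and YB-0158, against 8.07 CPM with DMSO. CDKN2A, whose gene level sums the p16 and p14ARF transcripts, changed by -0.69, -0.58 and -0.46. CDKN2C, encoding p18, changed by -0.63 with ICG-001 and -0.75 with YB-0158, and its CWP232228 value was -0.18 (adjusted p = 0.23). The rises of CDKN2B and the falls of CDKN2C with ICG-001 and YB-0158 were called with GC and length offsets too, while CDKN2A was then called only with ICG-001 (-0.20) and CDKN2D with none, with a value of 0.093 with ICG-001. On counts scaled from TPM the falls of CDKN2C (-0.39, adjusted p = 0.063) and CDKN2D (-0.28, adjusted p = 0.17) with ICG-001 were not called.

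Some genes of the retinoblastoma and E2F families fell with ICG-001 and YB-0158. Of 13, 1 rose and 5 fell with ICG-001, 4 rose and 0 fell with CWP232228, and 0 rose and 5 fell with YB-0158, where 24%, 21.2% and 22.1% of all genes fell. On counts scaled from TPM the counts were 2 higher and 2 lower, 0 and 0, and 1 and 2 in the same order of compounds. Leaving out either replicate of the compound gave 0 higher and 2 lower with ICG-001 and 0 and 3 with YB-0158, and GC and length offsets gave 1 and 8 with ICG-001 and 1 and 9 with YB-0158. E2F1, the best-known activator of CCNE1, changed by -0.44 (adjusted p = 0.0028) with ICG-001 and -0.71 (adjusted p = 3.5e-04) with YB-0158, and its CWP232228 value was -0.15 (adjusted p = 0.18). E2F2, another activator, changed by -0.67 and -0.70 with ICG-001 and YB-0158, with 0.12 (adjusted p = 0.46) for CWP232228. For CWP232228 the count was 0 higher and 4 lower under GC and length offsets, where 1619 of 16449 genes were higher and 3226 lower. Fewer genes of the list were called when either CWP232228 replicate was left out, as over all genes. RB1, which rose with CWP232228 by 0.65 (adjusted p = 0.025), was at 0.025 under these offsets. Without DMSO replicate 1 the counts were 5 and 3 with ICG-001, 7 and 0 with CWP232228, and 4 and 3 with YB-0158.

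Of 7 genes of CDK2 and CDK activation, 1 rose and 4 fell with ICG-001 and with YB-0158, and 1 rose and 0 fell with CWP232228, where 24%, 22.1% and 21.2% of all genes fell with ICG-001, YB-0158 and CWP232228. Counts scaled from TPM gave 2 falls with ICG-001, 2 with YB-0158 and 0 with CWP232228, and under GC and length offsets CWP232228 had 1 rise and 2 falls. CDK2, the partner of the E-type cyclins, changed by -0.34 (adjusted p = 0.0048) with ICG-001 and -0.38 (adjusted p = 0.0035) with YB-0158, with 0.07 (adjusted p = 0.47) for CWP232228. CCNA2, the cyclin that follows cyclin E on CDK2, changed by -0.75 (adjusted p = 0.0010) with ICG-001 and -0.77 (adjusted p = 0.0010) with YB-0158. CDC25A, the phosphatase that activates CDK2, changed by -0.49 and -0.60 with the same compounds. WEE1, an inhibitory kinase, rose with CWP232228 by 0.61 (adjusted p = 0.010), and without CWP232228 replicate 2 no gene of this list was called with it.

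Most E2F-responsive genes of DNA synthesis, which include CCNA2 again, fell with ICG-001 and YB-0158. Of 20, 0 rose and 18 fell with ICG-001 (median log2 fold change -0.72), 2 rose and 8 fell with CWP232228 (median -0.02), and 0 rose and 18 fell with YB-0158 (median -0.80), beside medians of 0.03, 0.04 and 0.02 over all genes. TK1, thymidine kinase, changed by -1.45 (SE 0.08, adjusted p = 1.2e-05), -0.70 (SE 0.08, adjusted p = 8.5e-04) and -1.38 (SE 0.08, adjusted p = 1.6e-05) with ICG-001, CWP232228 and YB-0158. MCM5, a subunit of the replicative helicase, changed by -1.34, -0.58 and -1.35. With CWP232228 the counts were 1 higher and 3 lower on counts scaled from TPM (median -0.18), 0 and 9 under GC and length offsets (median -0.17), and 0 and 6 without either of its replicates. Compared directly, 17 of the 20 were higher with CWP232228 than with ICG-001 and 18 were lower with YB-0158 than with CWP232228, where 3.65% and 4.21% of all genes were called in these directions. On counts scaled from TPM these direct counts were 9 and 11, where 89 and 93 of 16683 genes were called in these directions. Both direct counts were lower when any library of the compounds compared was left out. The calls over all genes in these directions were lower then as well. Against DMSO the falls were 17 or 18 of 20 with ICG-001 and 18 of 20 with YB-0158, whichever library was left out.

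Ubiquitin ligase subunits and other genes of cyclin and inhibitor turnover moved both ways. Of 14, 2 rose and 4 fell with ICG-001, 5 rose and 4 fell with CWP232228, and 2 rose and 5 fell with YB-0158. The 4 falls with ICG-001 are a share close to the 24% of all genes that fell with it. With CWP232228 the counts were 1 and 2 without replicate 1 of the compound and 1 and 1 without replicate 2, and with YB-0158 they were 1 and 2 without its replicate 1 and 0 and 2 without its replicate 2. GC and length offsets gave 2 and 8 with ICG-001, 3 and 5 with CWP232228 and 1 and 8 with YB-0158, and counts scaled from TPM gave 1 and 3, 1 and 1, and 1 and 2. RBX1, the RING subunit of cullin ligases, changed by -0.73 (adjusted p = 5.0e-04), -0.57 (adjusted p = 0.0032) and -0.62 (adjusted p = 0.0013). CKS1B, which helps SKP2 to recognise p27, changed by -0.43, -0.26 and -0.47, and CUL4B, a scaffold of the ligases that degrade p21, by 0.65, 0.81 and 0.44.

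FOXO factors and their targets, which include known regulators of CDKN1B, gave 3 higher and 2 lower of 8 with ICG-001, 2 and 2 with CWP232228, and 4 and 1 with YB-0158, where 24.8%, 21.6% and 21.7% of all genes were higher. GC and length offsets turned the balance, to 1 higher and 4 lower with ICG-001 (median log2 fold change -0.39, against 0.15 without offsets), 1 and 3 with CWP232228, and 2 and 3 with YB-0158. When either replicate of the compound was left out, 1 or 2 were higher with ICG-001, 0 or 1 with CWP232228 and 2 with YB-0158. FOXO1 changed by 0.62, 0.60 and 0.70, but its ICG-001 value was -0.35 on counts scaled from TPM, and FOXO4 by -1.16, -0.88 and -0.96. TXNIP fell with ICG-001 (-0.34) and CWP232228 (-0.66) and rose with YB-0158 (0.52). Of 9 neighbours of CDKN1C in its imprinted region, 1 rose and 5 fell with each compound, where 24%, 21.2% and 22.1% of all genes fell, and under GC and length offsets this was 3 and 2 with ICG-001, 2 and 0 with CWP232228, and 2 and 4 with YB-0158. Leaving out either replicate of YB-0158 gave 0 and 1 there, and the counts were 0 and 2 without ICG-001 replicate 2, 0 and 3 without ICG-001 replicate 1 or CWP232228 replicate 2, and 0 and 4 without CWP232228 replicate 1. They were 0 and 2, 1 and 2, and 0 and 3 with ICG-001, CWP232228 and YB-0158 on counts scaled from TPM. SLC22A18 changed by -0.52, -0.68 and -0.66, and by 0.051, -0.097 and -0.14 with the offsets. H19, an imprinted non-coding RNA, had 0.0787, 0.163 and 0.125 CPM with ICG-001, CWP232228 and YB-0158, near the floor of 3 counts, against 0.508 CPM with DMSO. It was among the 5 called lower with each compound, at -2.59 (adjusted p = 0.0038), -1.62 (adjusted p = 0.031) and -2.00 (adjusted p = 0.011), and the CWP232228 value was 0.40 on counts scaled from TPM.

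**Figure D5:**
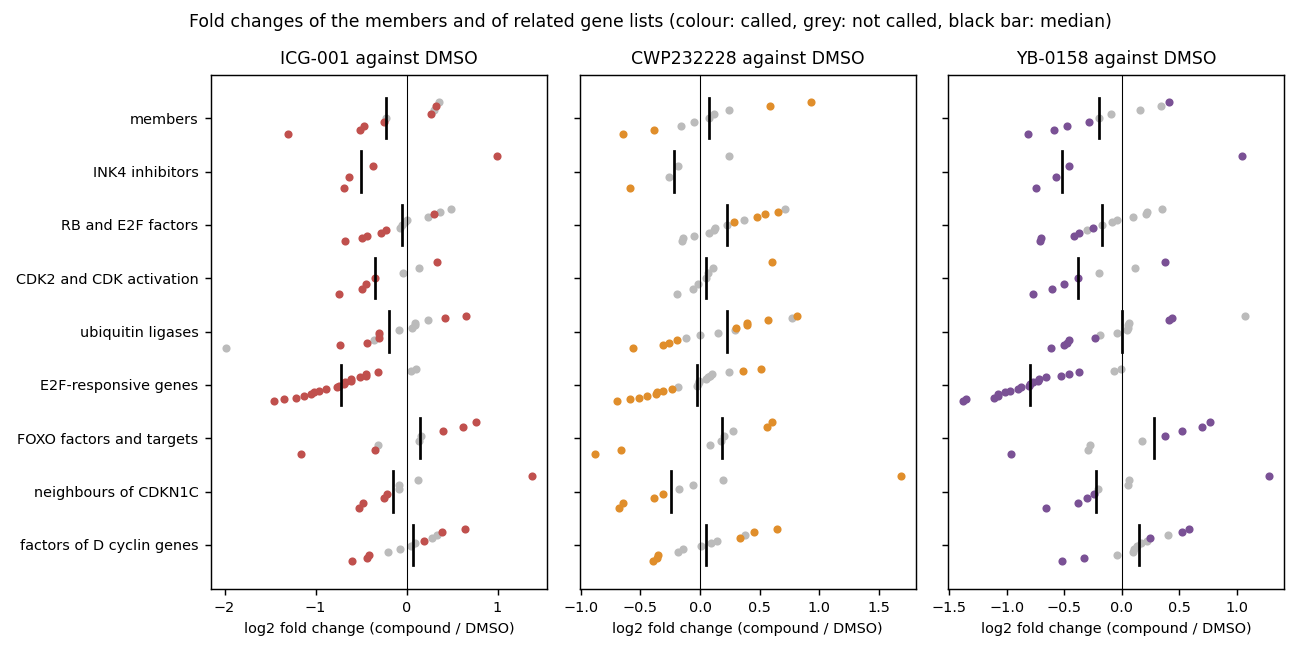
Log2 fold change against DMSO of the members and of 8 related gene lists for each compound, with 1 point per gene tested (coloured where called, grey otherwise) and a black bar at the list median; H19, near the floor with the compounds and called lower with each, is not drawn. The E2F-responsive genes lie mostly left of 0 with ICG-001 and YB-0158 and on both sides of 0 with CWP232228.

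Among 12 tested factors that act on the D-type cyclin genes, 3 rose and 3 fell with ICG-001 and with CWP232228, and 3 rose and 2 fell with YB-0158, shares close to those of all genes. With each compound 1 was higher and 2 were lower on counts scaled from TPM, and GC and length offsets gave 1 higher and 5 lower with CWP232228. When a library was left out, these counts ran from 0 higher and 0 lower (CWP232228, without its replicate 2) to 7 higher and 2 lower (YB-0158, without DMSO replicate 1). MYC, the factor known to act through the E-boxes of CDK4, changed by -0.43 (SE 0.09, adjusted p = 0.0052) with ICG-001, -0.36 (SE 0.09, adjusted p = 0.015) with CWP232228 and -0.32 (SE 0.09, adjusted p = 0.021) with YB-0158. Its level was 180.5, 189.5 and 194 CPM with ICG-001, CWP232228 and YB-0158, against 243 CPM with DMSO. SP1, a GC-box factor, changed by 0.65, 0.65 and 0.59, and by 0.21, 0.26 and 0.14 with GC and length offsets. EGR1 changed by -0.59, -0.39 and -0.52. TCF7L2, the main partner of beta-catenin in the colon, changed by 0.39, 0.34 and 0.53, but by -0.49, -0.29 and -0.33 on counts scaled from TPM, none of which was called.

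The genes whose log2 CPM followed a member most closely over the 8 libraries were sought among 3303 genes for the 3 members with the smallest p-values. For CDK4 these were PRPF31, SLC16A3 and POLD2, each with a Pearson correlation of 0.998. For CCNE1 they were DEPDC7 (0.995), LRR1 (0.994) and the pseudogene NPY6R (0.987), and for CDKN1C they were TEAD2 (0.944), MANF (0.941) and EEF1A2 (0.941). Each correlation is over 8 libraries that form 4 groups of the same experiment, so these values describe likeness of pattern only.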

How the data were processed

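RNA was measured in 8 HT29 libraries (TruSeq RNA v2, a kit without strand marks, per the labels' protocols). Tools named in the submitters' processing notes are DESeq2, fastp and Salmon 1.3.0, and the genome build there is GRCh38. Each library's deposited file gives, per the file headers, Salmon's estimated counts, TPM and an effective length for every transcript. The authors' 3 deposited tables give FPKM per library, a mean signal, log2 fold changes and p-values per gene. No source used here gives the transcriptome release, filters or any shrinkage of fold changes.

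Of 228754 transcripts, 204677 (89.5%) matched GENCODE release 29 by identifier, in 58193 genes, and unmatched transcripts held 1.54% to 1.85% of a library's reads. Estimated counts were summed per gene, rounded and tested in edgeR 4.0.16 under R 4.3.3 (TMM, filterByExpr, robust quasi-likelihood) with all 8 libraries in 1 model of 4 groups and 4 residual degrees of freedom. Each gene thus has 1 estimate of spread shared by all groups, although the DMSO libraries differed more. Adjusted p-values are by Benjamini-Hochberg over all genes tested. Transcript usage was tested with diffSpliceDGE and Simes p-values. Libraries held 29071547 to 58489118 estimated reads, and a count of 0 allows up to 3 counts (0.0522 to 0.106 CPM on the TMM-scaled library sizes). Floors cover counting error only.

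GC and length offsets were splines with 5 degrees of freedom per library. Other alternatives were DESeq2 1.42.0, its size factors, no filter, 2 groups alone, counts scaled from TPM and mean effective length, limma 3.58.1 on log2(FPKM + 1) and log2(FPKM + 0.1), a replicate block, and each library left out. Scripts were tested on simulated data.

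Members and lists were chosen with earlier results of these data known. All members are named; from each of 8 related lists, text names come from the 3 genes with the smallest p per compound against DMSO. Genes of likeness are the 3 with the highest Pearson correlation, among genes with a mean log2 CPM of at least 2 and an SD of at least 0.3. LTO1, TSPAN31 and INTS8 were added for their overlap with members after their values were seen, and KHDRBS1 and CREBBP are named by choice. A further gene and list are not reported here.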

Additional observations from a re-analysis of the deposited data

How the results depend on the processing

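With 2 libraries a group, counts of called members moved easily, and the calls over all genes also fell or rose with the setting. YB-0158 against CWP232228 had 1279 of 16449 genes called in the main fit. This total was 814 with the replicate block and 183 of 16683 on counts scaled from TPM. On counts scaled from TPM, 5361, 3297 and 4816 of 16683 genes were called with ICG-001, CWP232228 and YB-0158 against DMSO. With the 2 groups alone these were 6088 of 15984, 4144 of 15550 and 5153 of 15860. The totals were 5548, 3420 and 4934 of 18937 on log2(FPKM + 1), and 5541, 3382 and 4918 on log2(FPKM + 0.1). For CWP232228 against ICG-001, 1121 of 16449 genes were called in the main fit and 2126 of 30456 with no filter. It was 2840 of 15931 with the 2 groups alone, 3032 of 16449 with GC and length offsets and 171 of 16683 on counts scaled from TPM. No filter gave 268 of 30456 for YB-0158 against ICG-001. The count with ICG-001 (6) was 3 with the 2 groups alone, 2 on counts scaled from TPM, 3 on log2(FPKM + 1) and 2 on log2(FPKM + 0.1), and 3 to 7 with a library left out. With CWP232228 (4) it was 1 with the 2 groups alone, with GC and length offsets (with or without the replicate block), on counts scaled from TPM and on both FPKM scales, and 2 to 5 with a library left out. With YB-0158 (5) it was 3 with the 2 groups alone and on counts scaled from TPM, and 3 to 6 with a library left out. For CWP232228 against ICG-001 (1) it was 3 with no filter, 4 with the 2 groups alone, 2 with GC and length offsets (also with the block), and 0 on counts scaled from TPM, on both FPKM scales and with any library left out. For YB-0158 against ICG-001 (0) it was 2 with no filter and 0 with any library left out. For YB-0158 against CWP232228 (2) it was 1 with the replicate block, on counts scaled from TPM, on both FPKM scales and with any library left out. Members with changed transcript usage were 1 to 2 in each comparison with a library left out, where CDK6 was added without DMSO replicate 1 and, for ICG-001, CDKN1A without DMSO replicate 2.

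Directions turned as follows. With GC and length offsets CCND3 was 0.11, 0.21 and 0.053 with ICG-001, CWP232228 and YB-0158, and CDK6 was -0.27 with ICG-001 and -0.22 with YB-0158. Adding the replicate block gave 0.11, 0.21 and 0.054 for CCND3, and -0.27 and -0.23 for CDK6. On counts scaled from TPM, log2(FPKM + 1) and log2(FPKM + 0.1), CDKN1B with CWP232228 was 0.25, 0.23 and 0.24. On the same scales CCND1 in CWP232228 against ICG-001 was 0.056, 0.061 and 0.061, and CDKN1A was 0.075, 0.073 and 0.078. CDKN1B in YB-0158 against ICG-001 was -0.077, -0.066 and -0.070 there, and CDKN1A in YB-0158 against CWP232228 was -0.10, -0.083 and -0.089. CDK4 in YB-0158 against ICG-001 was 0.0033 with DESeq2 and 0.0045 with its size factors. With a library left out, the following values ran over 0. Against DMSO, CCNE2 ran from -0.012 to 0.84 with ICG-001 and from -0.57 to 0.28 with YB-0158, and CDKN1B from -0.16 to 0.057 with CWP232228 and from -0.19 to 0.0099 with YB-0158. In YB-0158 against ICG-001, CCND3 ran from -0.090 to 0.018, CDK4 from -0.014 to 0.0066 and CDK6 from -0.025 to 0.11. In YB-0158 against CWP232228, CDKN1A ran from -0.035 to 0.12, CDKN1B from -0.14 to 0.079 and CDKN1C from -0.14 to 0.29. The cause of these changes was not tested.

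Over all genes, the CWP232228 calls (3555 higher, 3487 lower) became 1619 higher and 3226 lower with GC and length offsets, and the total of 7042 ran from 2747 (without CWP232228 replicate 2) to 8798 (without DMSO replicate 1). The totals of 8025 with ICG-001 and 7209 with YB-0158 ran from 5140 (without ICG-001 replicate 2) to 9412 and from 4237 (without YB-0158 replicate 2) to 8846. Calls ran from 41 (without CWP232228 replicate 2) to 3032 around 1121 for CWP232228 against ICG-001, from 88 (without YB-0158 replicate 1) to 3293 around 1279 for YB-0158 against CWP232228, and from 0 to 268 around 1 for YB-0158 against ICG-001.

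Deviations of same-numbered libraries correlated between -0.08 and 0.18. The labels do not say what the replicate numbers pair, and these values do not settle whether libraries were paired. As a block the replicate numbers reversed the direction of 0 of 54 member results and left 52 with the same call. The 2 calls lost in edgeR were CDKN1A in ICG-001 against DMSO (adjusted p of 0.059) and CCNE2 in YB-0158 against CWP232228 (0.068). CDKN1C, on 107 to 227 reads, and the minor CCND1 transcripts are limited by depth.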

Other observations

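Genes of the described targets of ICG-001 and YB-0158 were measured beside the members. CREBBP, a coactivator of beta-catenin and of other factors, had 110.5 ± 7.84 CPM with ICG-001, 94.3 ± 4.98 CPM with CWP232228 and 123 ± 7.86 CPM with YB-0158, against 68.9 ± 9.83 CPM with DMSO (SD, n = 2 each). It rose with each, by 0.68 (SE 0.11, adjusted p = 0.0014), 0.45 (SE 0.11, adjusted p = 0.012) and 0.84 (SE 0.11, adjusted p = 5.9e-04) on the log2 scale in edgeR. CREBBP was not examined under GC and length offsets or on counts scaled from TPM, so its rise rests on the main fit alone. KHDRBS1 was not called, with 215 ± 11.6, 239 ± 9.91 and 225 ± 8.26 CPM with ICG-001, CWP232228 and YB-0158, against 231 ± 21.3 CPM with DMSO.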
